A study of Rattus norvegicus with 9 samples.

Results

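Potassium channel subunits are described here in rat mPFC (medial prefrontal cortex) tissue. They were taken as every protein-coding gene whose name starts with Kcn, which gave 92 of the 34463 genes of the table, and they were grouped by subfamily letter. Of the 92 subunits, 73 had a mean FPKM (fragments scaled by gene length and library size) of 0.5 or more over the 9 libraries and were tested, and 19 were not. The rats were SD animals, and the labels and methods used here do not give their age. There were 3 conditions with 3 libraries each. In the PHL + CMS group the rats received phloretin (PHL), a dihydrochalcone found in apples, and were exposed to chronic mild stress (CMS). In the Veh + CMS group they received vehicle and the same stress, and in the Veh group they received vehicle without stress. No transgene, deletion or strain difference separated the groups. Nothing in the labels says that the libraries of a group came from separate rats, so what the p-values weigh is the scatter of these 9 libraries, in part perhaps technical.

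Potassium channels let potassium ions leave the cell, which holds the resting potential negative, ends action potentials and limits repetitive firing. Voltage-gated subunits (Kv) open on depolarization, inward rectifiers (Kir) and 2-pore-domain channels (K2P) carry resting and receptor-driven currents, and other channels open with intracellular calcium or sodium. Silent Kv subunits form no channel alone but alter Kv2 channels, and auxiliary subunits set the gating or the surface level of a pore-forming partner. In cortex most subunits are neuronal, while Kir4.1 (Kcnj10) is the main potassium channel of astrocytes.

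The libraries held 13913639 to 16960004 reads on genes. Mitochondrial genes took 6.96% to 9.09% of these reads in the PHL + CMS libraries, 9.67% to 13.9% in the Veh + CMS libraries and 9.74% to 10.6% in the Veh libraries. The highest share was that of the second Veh + CMS library (Veh + CMS 2), which also stood apart from the other 2 of its group in several subunits below. Neuronal and glial markers were present in every library, with vesicular glutamate transporter Slc17a7 between 389 and 631 FPKM. Markers of several cell types differed between the groups. The summed FPKM of the 22 myelin markers in the table was 3727 to 8102 in PHL + CMS, 9457 to 12635 in Veh + CMS and 2784 to 3472 in Veh. The 15 pan-neuronal markers summed to 3390 to 3823 FPKM in PHL + CMS, 3009 to 3101 FPKM in Veh + CMS and 3486 to 4290 FPKM in Veh. In such bulk tissue, fewer cells of a type and less RNA per cell cannot be told apart.

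The subunits spanned a wide range of levels. Summed over all 92 genes the mean level was 1184 FPKM, and the 10 highest subunits held 46.5% of it. The highest were 2 auxiliary subunits. Kcnmb4, the neuronal beta subunit of the BK channel, averaged 103 FPKM over the 9 libraries, and Kcnab2, a Kv beta subunit that binds Kv1 channels, averaged 97.4 FPKM. The silent subunit Kcnf1 followed with 52.9 FPKM and the K2P channel Kcnk1 (TWIK-1) with 48.9 FPKM. Others among the 10 were the G-protein-gated Kir subunit Kcnj9 with 43.7 FPKM, the Kv4 partner Kcnip3 with 41.6 FPKM, the strong inward rectifier Kcnj4 with 40.7 FPKM, the glial Kcnj10 with 40.0 FPKM and the ELK channel Kcnh3 with 38.0 FPKM. The level of Kcnh3 is uncertain, because its span in the table overlaps Spats2 on the same strand, which averaged 19.7 FPKM.

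Pore-forming subunits took 61.0% of the summed level, auxiliary subunits 28.2% and silent subunits 10.8%. By subfamily, the 15 Kir genes held 16.1%, the 3 Kv beta subunits 11.5%, the 14 K2P genes 10.5% and the 4 BK beta subunits 8.82%. Among the tested subunits, 36 averaged at least 10 FPKM, 35 lay from 1 to 10 FPKM and 2 lay below 1 FPKM. The lowest tested subunit was the Kir gene Kcnj5 at 0.701 FPKM, and the highest of those left out was Kcnj13 at 0.341 FPKM. Kcnj13 was uneven, at 1.24 and 1.00 FPKM in 2 Veh libraries and at 0.362 FPKM or less in the other 7, and overlaps Gigyf2 on the opposite strand. Kcne1, the KCNE subunit of the cardiac slow delayed rectifier, was listed at 0 in every library, and 13 of the 19 subunits left out were at 0 in at least 1 library.

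**Figure D1:**
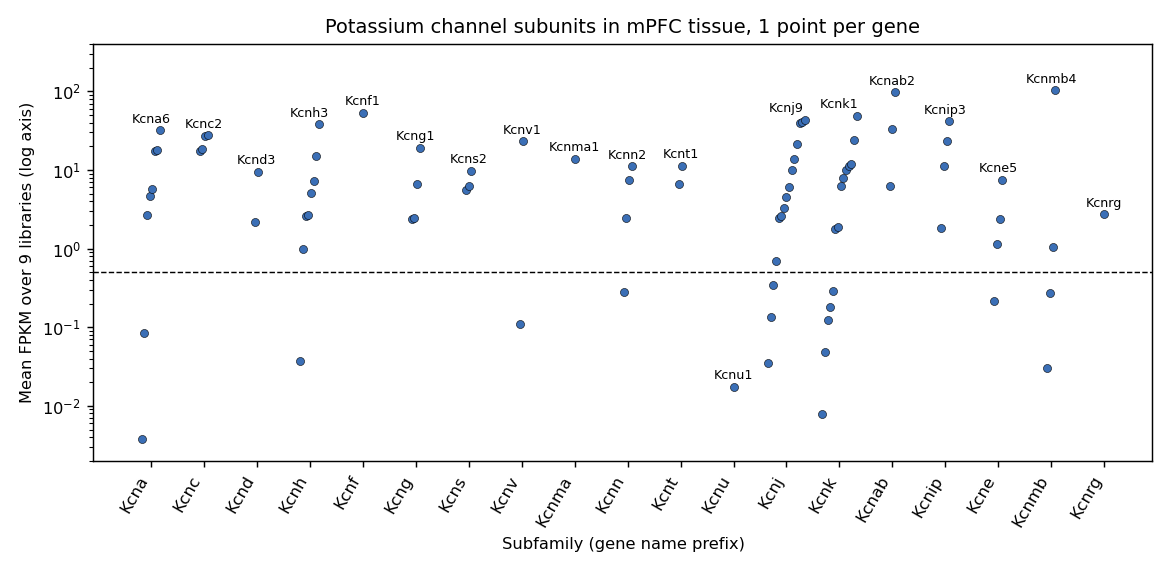
Mean FPKM over the 9 libraries (vertical log axis) for each subunit of the prefixes shown, with the highest gene of each prefix named and the filter at 0.5 FPKM as a dashed line. Kcne1 is at 0 and is not drawn. Most subfamilies hold genes on both sides of 10 FPKM, and Kcnmb4 at 103 FPKM and Kcnab2 at 97.4 FPKM are the highest.

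The first comparison asked how stress altered the subunits in vehicle-treated rats. In Veh + CMS against Veh, Kcna1 rose and Kcnk12 and Kcnk1 fell, with adjusted p under 0.05 in a limma fit over all 16159 tested genes. Kcna1 encodes Kv1.1, a low-threshold channel of axons. Its FPKM was 21.0, 22.2 and 22.5 in Veh + CMS and 14.1, 15.4 and 16.4 in Veh. The groups stood apart, with a log2 fold change of 0.52 ± 0.09 (SE) and a limma adjusted p of 0.0277. Kcnk12 encodes THIK-2, a K2P subunit that gives little current alone. Its FPKM was 7.81, 8.04 and 8.03 in Veh + CMS and 11.8, 10.3 and 10.7 in Veh. The groups did not overlap, and the log2 fold change was -0.45 ± 0.09 (SE) with a limma adjusted p of 0.0342. Kcnk1 encodes TWIK-1, a weakly conducting background channel of neurons and astrocytes. Its FPKM was 42.9, 40.5 and 40.7 in Veh + CMS and 54.9, 57.5 and 51.6 in Veh. Here too the groups were apart, with a log2 fold change of -0.40 ± 0.08 (SE) and a limma adjusted p of 0.0359.

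One subunit higher and 2 lower were 1.37% and 2.74% of the 73 tested, beside 2.65% higher and 1.14% lower among all tested genes. These calls were close to the threshold. Leaving out any 1 of the 3 Veh + CMS libraries, or Veh 1 or Veh 2, left no subunit called by limma, and leaving out Veh 3 gave 4 calls. Without single libraries of the 2 groups the adjusted p ranged from 0.0408 to 0.117 for Kcna1, from 0.0519 to 0.116 for Kcnk12 and from 0.0435 to 0.14 for Kcnk1. The log2 fold changes stayed within 0.46 to 0.57, -0.49 to -0.40 and -0.44 to -0.36 for Kcna1, Kcnk12 and Kcnk1 in this order.

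At an unadjusted p under 0.05 the same fit gave 6 subunits higher and 15 lower in Veh + CMS, which were 8.22% and 20.5% of those tested. Among all tested genes 10.9% were higher and 11.3% lower by this rule. The share of lower subunits was thus above that of all genes, and the share of higher subunits was below it. The median log2 fold change of the 73 subunits was -0.13, beside -0.02 for all tested genes, and 51 of 73 lay below 0. On leaving out single libraries the median ranged from -0.17 to -0.08 and 43 to 51 of 73 lay below 0. The median was -0.08 without Veh + CMS 3, and the count of 43 was that without Veh + CMS 2.

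**Figure D2:**
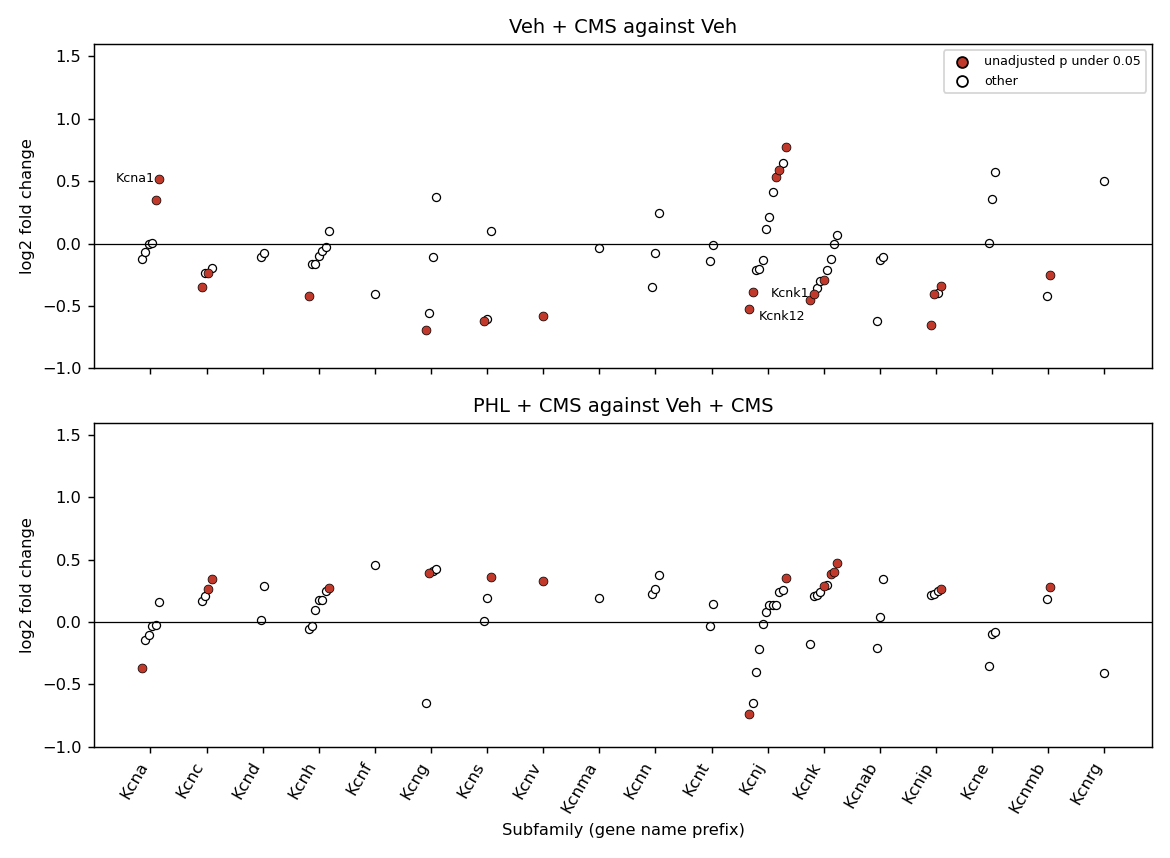
Log2 fold change (vertical axes) of the tested subunits of the gene name prefixes shown, for Veh + CMS against Veh above and PHL + CMS against Veh + CMS below, 1 point per gene. Filled points have an unadjusted p under 0.05 in limma, and the 3 named genes passed the adjusted threshold. Both panels share the Veh + CMS libraries, so a library value that is low in that group moves a gene down in the upper panel and up in the lower one.

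The second comparison asked what phloretin altered under stress. In PHL + CMS against Veh + CMS no subunit passed the adjusted threshold in limma, and none did with voom on reads recovered from the FPKM. None of the 16159 tested genes was called either, so the background was 0% higher and 0% lower. At an unadjusted p under 0.05, limma gave 15 subunits higher and 2 lower, which were 20.5% and 2.74%, beside 7.51% higher and 8.22% lower among all tested genes. By voom, 14 were higher and 4 lower. The median log2 fold change was 0.18, beside 0.01 for all tested genes, and 52 of 73 subunits lay above 0. On leaving out single libraries the median ranged from 0.12 (without PHL + CMS 1 and without Veh + CMS 3) to 0.24 (without PHL + CMS 2), and 47 to 55 of 73 lay above 0. Leaving out PHL + CMS 3 lowered the unadjusted count to 6 higher and 2 lower. Leaving out PHL + CMS 2 brought Kcnk12 past the threshold, with a limma adjusted p of 0.0469.

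The smallest p in this comparison belonged to Kcnk12. Its FPKM was 11.8, 10.5 and 11.02 in PHL + CMS, against 7.81, 8.04 and 8.03 in Veh + CMS. The groups did not overlap, and the log2 fold change was 0.48 ± 0.09 (SE) with a limma adjusted p of 0.149. Kcnk3 (TASK-1), an acid-sensitive background channel, had 6.84, 6.50 and 7.31 FPKM in PHL + CMS, against 5.31, 5.44 and 4.95 FPKM in Veh + CMS. That was a log2 fold change of 0.39 ± 0.09 (SE) with a limma adjusted p of 0.155, again with no overlap. On the lower side, Kcna1 had 18.3, 17.2 and 15.5 FPKM in PHL + CMS, against 21.0, 22.2 and 22.5 FPKM in Veh + CMS. Its log2 fold change was -0.37 ± 0.09 (SE), and its limma adjusted p was 0.16.

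The third comparison set PHL + CMS against Veh. No subunit and none of the 16159 tested genes was called by limma (background 0% higher and 0% lower), nor any subunit by voom. At an unadjusted p under 0.05, limma gave 3 subunits higher (4.11%) and 0 lower, beside 4.99% higher and 5.78% lower among all tested genes, and voom gave 2 higher and 0 lower. Kcnk9 and Kcnj8 were among the 3. The median log2 fold change of the subunits was 0.01, and 38 of 73 lay above 0. The median was below 0 without PHL + CMS 1, PHL + CMS 3, Veh 2 or Veh 3, in a range of -0.04 to 0.05. Since the comparisons share libraries, the values of each gene are given side by side below and no relation between comparisons was computed. The Veh + CMS libraries enter the first and second comparisons with opposite sign, so opposite counts and medians of a family are in part built in.

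**Figure D3:**
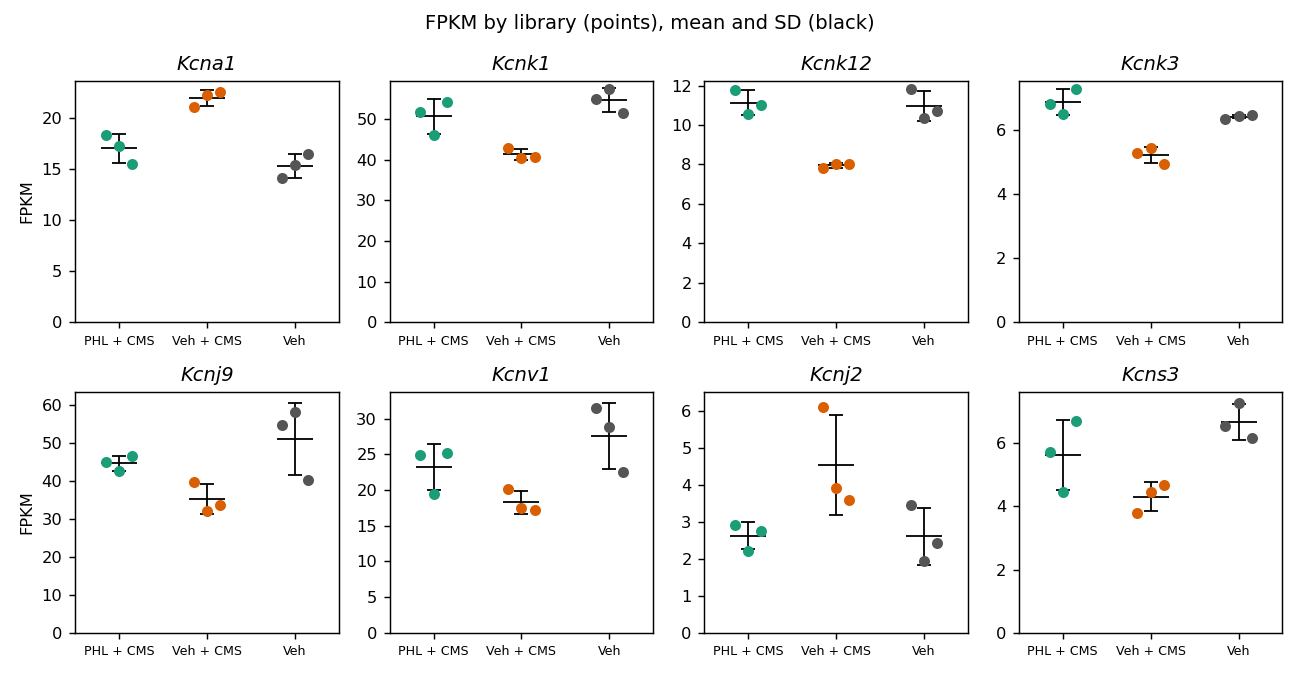
FPKM (vertical axes, from 0) of 8 subunits in the 3 libraries of each group, with the mean and SD in black. Kcna1 and Kcnj2 are highest in Veh + CMS, Kcnk1, Kcnk12, Kcnk3 and Kcnj9 are lowest in Veh + CMS in all 3 libraries, and Kcnv1 and Kcns3 overlap between PHL + CMS and Veh + CMS.

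Among the voltage-gated pore subunits, the Kv1 family, which sets the threshold and the repolarization of axons, had the only called rise, that of Kcna1. Kcna6 (Kv1.6) was its highest member. Its FPKM was 29.8, 39.9 and 29.8 in PHL + CMS, 37.8, 32.7 and 35.7 in Veh + CMS, and 27.6, 28.3 and 27.1 in Veh. Both stressed groups lay wholly above Veh, and for Veh + CMS against Veh the log2 fold change was 0.35 with a limma adjusted p of 0.122. The other 4 tested Kv1 genes were Kcna2, Kcna3, Kcna4 and Kcna5, named after their values were seen. Their log2 fold changes in that comparison lay from -0.13 to 0.00, and their groups overlapped. Kcna3, at the low end of this range, overlaps AABR07012826.1 on the same strand (mean 10.29 FPKM), so its reads could be shared. Kcna1 and Kcna6 stand near each other in the genome build Rnor_6.0, at chr4:159190804-159192526 and chr4:159253934-159287193 on the minus strand, with Kcna5 at chr4:159077195-159079003, also on the minus strand.

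Kv3 channels allow fast firing, and all 4 were tested. Each of the 4 had a log2 fold change below 0 in Veh + CMS against Veh, with a median of -0.24. Each lay above 0 in PHL + CMS against Veh + CMS, which shares the Veh + CMS libraries, with a median of 0.24. The medians were -0.43 and 0.35 without Veh + CMS 2, the first was -0.15 without Veh 1, and the second was 0.14 without Veh + CMS 3, where 3 of the 4 lay below 0 in Veh + CMS against Veh. Kcnc2 (Kv3.2) had 27.7, 26.5 and 31.2 FPKM in PHL + CMS, 23.5, 24.6 and 22.7 FPKM in Veh + CMS and 34.9, 30.5 and 25.8 FPKM in Veh. The Veh + CMS libraries lay below all others, and the limma adjusted p was 0.115 against Veh and 0.303 for PHL + CMS against Veh + CMS. Kcnc4 (Kv3.4) had 31.5, 29.1 and 27.9 FPKM in PHL + CMS, against 24.3, 20.9 and 24.5 FPKM in Veh + CMS. This was a log2 fold change of 0.34 with a limma adjusted p of 0.181.

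The Kv4 gene Kcnd3, a pore subunit of the dendritic A-type current, overlapped between Veh + CMS and each of the other groups. It stood at 10.6, 10.3 and 10.4 FPKM in PHL + CMS, 8.75, 6.76 and 10.4 FPKM in Veh + CMS and 8.61, 8.88 and 10.1 FPKM in Veh. For Kcnd3, every PHL + CMS library lay above every Veh library, with a log2 fold change of 0.19 and a limma adjusted p of 0.694. Its cytoplasmic partners, the KChIP proteins, had a log2 fold change below 0 in Veh + CMS against Veh for 4 of 4 genes. The median was -0.40. Among them Kcnip2, named after its values were seen, was uneven within groups. It had 3.32, 0.248 and 0.216 FPKM in Veh + CMS and 0.201, 0.310 and 6.87 FPKM in Veh. Its log2 fold change was -0.40 with a limma adjusted p of 0.911, so the median rests in part on Kcnip2. On leaving out single libraries the log2 fold change of Kcnip2 ranged from -1.52 to 1.04. Kcnip3 (KChIP3, also known as calsenilin or DREAM) had 45.6, 42.1 and 41.9 FPKM in PHL + CMS, 31.2, 42.8 and 34.4 FPKM in Veh + CMS and 44.8, 43.3 and 48.1 FPKM in Veh. Veh + CMS and Veh did not overlap, with a log2 fold change of -0.34 and a limma adjusted p of 0.121. Kcnip1 had 8.36, 8.47 and 15.5 FPKM in PHL + CMS, 9.0, 8.64 and 9.0 FPKM in Veh + CMS and 18.9, 12.5 and 11.8 FPKM in Veh. Its log2 fold change in Veh + CMS against Veh was -0.66 with a limma adjusted p of 0.169. Without Veh + CMS 2, Veh + CMS 3 or Veh 3, 3 of the 4 KChIP genes lay below 0 in this comparison, and the median ranged from -0.60 to -0.35 on leaving out single libraries.

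The EAG, ERG and ELK subunits (Kcnh) include slow and cardiac-type delayed rectifiers. Of the 7 tested, 6 lay below 0 in Veh + CMS against Veh, and 4 did without Veh 2. Kcnh2 (ERG1) had 8.04, 6.61 and 7.21 FPKM in PHL + CMS, 6.22, 6.69 and 5.46 FPKM in Veh + CMS and 9.18, 7.57 and 7.97 FPKM in Veh. Its Veh + CMS libraries lay below its Veh libraries, with a log2 fold change of -0.42 and a limma adjusted p of 0.0905. Kcnh1 (EAG1) had 15.5, 16.0 and 17.3 FPKM in PHL + CMS, against 13.3, 12.7 and 14.3 FPKM in Veh + CMS. Its log2 fold change was 0.27 with a limma adjusted p of 0.184.

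The 12 tested inward rectifiers went both ways, with 7 above 0 and 5 below 0 in Veh + CMS against Veh. On the neuronal side, Kcnj9 (GIRK3), which opens through G-protein-coupled receptors, had 45.0, 42.7 and 46.6 FPKM in PHL + CMS, 39.7, 32.2 and 33.7 FPKM in Veh + CMS and 54.7, 58.3 and 40.2 FPKM in Veh. Veh + CMS lay below both other groups in every library. The log2 fold change was -0.52 with a limma adjusted p of 0.0702 against Veh, and 0.35 with a limma adjusted p of 0.274 for PHL + CMS against Veh + CMS. Without Veh 3, Kcnj9 passed in Veh + CMS against Veh (limma adjusted p = 0.0408). Kcnj4 (Kir2.3) had 52.1, 32.4 and 42.0 FPKM in PHL + CMS, 38.6, 32.1 and 33.7 FPKM in Veh + CMS and 47.0, 44.0 and 44.9 FPKM in Veh. Against Veh the Veh + CMS libraries were all lower, with a log2 fold change of -0.39 and a limma adjusted p of 0.181.

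Other inward rectifiers had higher values in Veh + CMS. Kcnj2 (Kir2.1), a strong rectifier of neurons, vessels and microglia, had 2.92, 2.22 and 2.74 FPKM in PHL + CMS, 6.08, 3.91 and 3.59 FPKM in Veh + CMS and 3.45, 1.94 and 2.43 FPKM in Veh. Veh + CMS lay above both other groups, with a log2 fold change of 0.77 and a limma adjusted p of 0.122 against Veh, and -0.74 with 0.221 for PHL + CMS against Veh + CMS. The lowest tested gene, Kcnj5 (GIRK4), had the same order at 0.746, 0.669 and 0.346 FPKM in PHL + CMS, 0.912, 0.949 and 0.953 FPKM in Veh + CMS and 0.415, 0.746 and 0.571 FPKM in Veh, and its limma adjusted p was 0.344 in Veh + CMS against Veh. Kcnj10 (Kir4.1), through which astrocytes and oligodendrocytes take up potassium, had 27.9, 45.7 and 38.8 FPKM in PHL + CMS, 38.0, 69.6 and 43.1 FPKM in Veh + CMS and 31.1, 28.6 and 37.6 FPKM in Veh. The second Veh + CMS library was far above the rest, and the log2 fold change against Veh was 0.59 with a limma adjusted p of 0.199. Without that library the log2 fold change of Kcnj10 was 0.33, the lowest on leaving out single libraries. The 19 astrocyte markers other than Kcnj10 summed to 3116, 3564 and 3586 FPKM in PHL + CMS, 3292, 4868 and 3403 FPKM in Veh + CMS and 3390, 3314 and 3689 FPKM in Veh. Their sum was also highest in the second Veh + CMS library, and their part in the Kcnj10 values was not tested.

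Kcnj8 (Kir6.1), the pore of the ATP-sensitive channel of pericytes and vascular muscle, had 2.23, 2.97 and 2.85 FPKM in PHL + CMS, 2.40, 3.80 and 2.12 FPKM in Veh + CMS and 1.92, 1.87 and 1.70 FPKM in Veh. Its log2 fold change was 0.52 in PHL + CMS against Veh, with a limma adjusted p of 0.461, and 0.53 in Veh + CMS against Veh, with a limma adjusted p of 0.208. The 17 tested markers of endothelial cells and pericytes had a median log2 fold change of 0.22 in Veh + CMS against Veh. Over the 18 in the table the sum was 165, 185 and 196 FPKM in PHL + CMS, 173, 259 and 183 FPKM in Veh + CMS and 175, 191 and 155 FPKM in Veh. Kcnj8 and these markers were both highest in Veh + CMS 2, without which the log2 fold change of Kcnj8 in Veh + CMS against Veh was 0.29, and their part in the Kcnj8 values was not tested. Kcnj9 and Kcnj10 are neighbours in Rnor_6.0, at chr13:90703036-90710287 on the minus strand and chr13:90723092-90752581 on the plus strand, and their log2 fold changes in Veh + CMS against Veh had opposite signs.

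The K2P family carries the background potassium current. Of its 14 genes 9 were tested, and 8 of these lay below 0 in Veh + CMS against Veh and 8 above 0 in PHL + CMS against Veh + CMS, with medians of -0.29 and 0.29. These comparisons share the Veh + CMS libraries with opposite sign. In PHL + CMS against Veh the median was 0.02, in a range of -0.02 to 0.08 on leaving out single libraries. Without Veh + CMS 3 the median in Veh + CMS against Veh was -0.17. The exceptions were Kcnk10 (0.07 in Veh + CMS against Veh, named after its values were seen) and Kcnk2 (-0.17 in PHL + CMS against Veh + CMS). The count below 0 in Veh + CMS against Veh was 9 with quantile normalization, 7 with median-of-ratios scaling, 7 with voom and 7 without Veh + CMS 1, Veh + CMS 2 or Veh 2. Summed over the 14 genes, the family was at 128, 126 and 137 FPKM in PHL + CMS, 108, 117 and 103 FPKM in Veh + CMS and 140.4, 139 and 125 FPKM in Veh. The Veh + CMS sums were below all others.

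Kcnk1 itself had 51.9, 46.0 and 54.3 FPKM in PHL + CMS, against 42.9, 40.5 and 40.7 FPKM in Veh + CMS, with a log2 fold change of 0.29 ± 0.08 (SE) and a limma adjusted p of 0.167. Kcnk3 was at 5.31, 5.44 and 4.95 FPKM in Veh + CMS, below the 6.37, 6.45 and 6.48 FPKM of Veh, and its limma adjusted p was 0.107 in that comparison. Kcnk9 (TASK-3), which pairs with TASK-1, differed from these in that its Veh + CMS and Veh libraries overlapped. Its FPKM was 15.0, 12.6 and 13.1 in PHL + CMS, 9.36, 9.49 and 11.9 in Veh + CMS and 9.37, 12.5 and 9.07 in Veh. PHL + CMS lay above both other groups, as it also did for Kcnk3. For Kcnk9 the limma adjusted p was 0.243 against Veh + CMS and 0.399 against Veh. Kcnk9 overlaps Trappc9 on the same strand (mean 14.0 FPKM), so its reads could be shared. Kcnk2 (TREK-1), a mechanosensitive channel, had 13.1, 9.23 and 9.94 FPKM in PHL + CMS, 13.6, 12.3 and 10.3 FPKM in Veh + CMS and 11.8, 13.8 and 13.9 FPKM in Veh, all overlapping.

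No channel opened by calcium or sodium was called in any comparison by limma. Kcnma1, the pore of the BK channel, had 15.9, 13.3 and 15.6 FPKM in PHL + CMS, 14.3, 12.3 and 12.6 FPKM in Veh + CMS and 15.0, 13.6 and 11.7 FPKM in Veh, with a log2 fold change of -0.03 in Veh + CMS against Veh. Its beta subunit Kcnmb4, which makes BK channels of neurons slow and resistant to iberiotoxin, had 99.3, 107 and 126 FPKM in PHL + CMS, 93.4, 84.3 and 94.3 FPKM in Veh + CMS and 120.2, 107 and 97.0 FPKM in Veh. The Veh + CMS libraries of Kcnmb4 were below all others, with limma adjusted p of 0.222 against Veh and 0.27 for PHL + CMS against Veh + CMS. The SK channel Kcnn2, which follows action potentials with a calcium-driven hyperpolarization, had 9.93, 12.9 and 16.4 FPKM in PHL + CMS, 9.96, 10.3 and 9.35 FPKM in Veh + CMS and 10.5, 8.49 and 12.6 FPKM in Veh. The sodium-activated Kcnt1 (Slack) had 9.90, 11.8 and 11.4 FPKM in PHL + CMS, 10.5, 13.8 and 9.89 FPKM in Veh + CMS and 11.1, 11.4 and 11.4 FPKM in Veh. Both overlapped in all 3 comparisons.

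Silent Kv subunits had the most negative median of the 3 roles in Veh + CMS against Veh. The median log2 fold change of the 9 tested was -0.56, with 7 below 0, beside -0.10 for 51 pore-forming and -0.25 for 13 auxiliary subunits. In PHL + CMS against Veh + CMS 8 of the 9 silent subunits lay above 0, with a median of 0.36. Both comparisons hold the Veh + CMS libraries, with opposite sign, and much of this rested on Veh + CMS 2. Without it the medians were -0.15 with 6 of 9 below 0, and 0.20 with 6 of 9 above 0. The pore-forming subunits had medians of -0.12 and 0.15 without that library. The median of the auxiliary subunits was -0.02 in Veh + CMS against Veh without Veh + CMS 3.

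Kcnv1 (Kv8.1), a silent subunit of cortical neurons, had 24.9, 19.5 and 25.2 FPKM in PHL + CMS, 20.1, 17.5 and 17.3 FPKM in Veh + CMS and 31.5, 28.8 and 22.5 FPKM in Veh. Every Veh + CMS library was below every Veh library, with a log2 fold change of -0.58 and a limma adjusted p of 0.0623. It passed with voom (adjusted p = 0.0443) and without Veh 3 (limma adjusted p = 0.0408). Kcns3 (Kv9.3) is known in cortex from parvalbumin interneurons. It had 5.72, 4.46 and 6.70 FPKM in PHL + CMS, 3.78, 4.47 and 4.68 FPKM in Veh + CMS and 6.56, 7.28 and 6.17 FPKM in Veh. Veh + CMS and Veh were apart, with a log2 fold change of -0.62 and a limma adjusted p of 0.0658.

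The most abundant silent subunit, Kcnf1 (Kv5.1), had 67.3, 50.4 and 57.9 FPKM in PHL + CMS, 51.2, 29.1 and 51.1 FPKM in Veh + CMS and 57.3, 59.9 and 51.5 FPKM in Veh. Its lowest value was that in Veh + CMS 2. Against Veh the log2 fold change was -0.40 over all libraries and -0.13 without that library. Kcng1 (Kv6.1) had 24.5, 21.0 and 21.3 FPKM in PHL + CMS, 20.9, 12.8 and 17.9 FPKM in Veh + CMS and 18.0, 16.1 and 20.6 FPKM in Veh, with a limma adjusted p of 0.308 for PHL + CMS against Veh + CMS. Kcns2 (Kv9.2) had overlapping groups, with 10.9, 8.37 and 10.7 FPKM in PHL + CMS, 11.1, 8.83 and 9.85 FPKM in Veh + CMS and 9.76, 9.72 and 8.22 FPKM in Veh.

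Of the remaining auxiliary subunits, Kcnab2 had 94.7, 87.3 and 103 FPKM in PHL + CMS, 80.3, 130.1 and 75.6 FPKM in Veh + CMS and 116, 99.4 and 90.5 FPKM in Veh. The Veh + CMS libraries held both its highest and its lowest value. Kcnab1, another Kv beta subunit, had 28.9, 25.8 and 31.6 FPKM in PHL + CMS, against 35.8, 32.1 and 39.7 FPKM in Veh, without overlap and with a log2 fold change of -0.32 and a limma adjusted p of 0.566. The 3 tested KCNE subunits had log2 fold changes of 0.00, 0.36 and 0.57 in Veh + CMS against Veh and were below 0 in PHL + CMS against Veh + CMS. Their highest member, Kcne5, had 5.45, 8.91 and 7.46 FPKM in PHL + CMS, 7.12, 7.74 and 7.83 FPKM in Veh + CMS and 9.11, 6.26 and 7.54 FPKM in Veh. With quantile normalization, with voom and without Veh + CMS 2, Veh + CMS 3 or Veh 2, 2 of the 3 KCNE genes were above 0 in Veh + CMS against Veh, and 1 was above 0 in PHL + CMS against Veh + CMS without PHL + CMS 1 or Veh + CMS 1. Kcnrg, whose human form is a soluble protein that hinders the assembly of Kv channels, had 3.46, 2.35 and 1.82 FPKM in PHL + CMS, 2.90, 3.34 and 3.66 FPKM in Veh + CMS and 2.01, 2.55 and 2.36 FPKM in Veh. Veh + CMS was above Veh, with a log2 fold change of 0.50 and a limma adjusted p of 0.238.

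Markers of myelin differed between the libraries as some of these subunits did. The myelin sum was 3937, 8102 and 3727 FPKM in PHL + CMS, 9457, 12635 and 11007 FPKM in Veh + CMS and 3472, 2784 and 3467 FPKM in Veh. Within PHL + CMS the second library had the highest myelin sum, the highest Kcnj10 (45.7 FPKM) and the lowest Kcnk1 (46.0 FPKM). That library was the lowest of its group in 43 of the 73 subunits and the highest in 13, and no such count was made over all tested genes. For Kcna1 it lay between the other 2, at 17.2 FPKM beside 18.3 and 15.5 FPKM. All 21 tested myelin markers were above 0 in Veh + CMS against Veh (20 called by limma, median log2 fold change 1.66) and below 0 in PHL + CMS against Veh + CMS (0 called by limma, all 21 at an unadjusted p under 0.05, median -1.07). Over the 15 pan-neuronal markers the medians were -0.33 and 0.18. The 22 tested microglial markers had medians of 0.24 and -0.37. The 16 interneuron markers had medians of -0.21 and 0.05, with 3 called lower by limma in Veh + CMS against Veh. Markers of striatal projection neurons summed to 326 to 347 FPKM in PHL + CMS, 472 to 1035 FPKM in Veh + CMS and 305 to 781 FPKM in Veh, and markers of meninges and fibroblasts to 358 to 908 FPKM, 399 to 530 FPKM and 253 to 1107 FPKM in the same groups. The parts of these cell types in the values of the subunits were not tested.

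**Figure D4:**
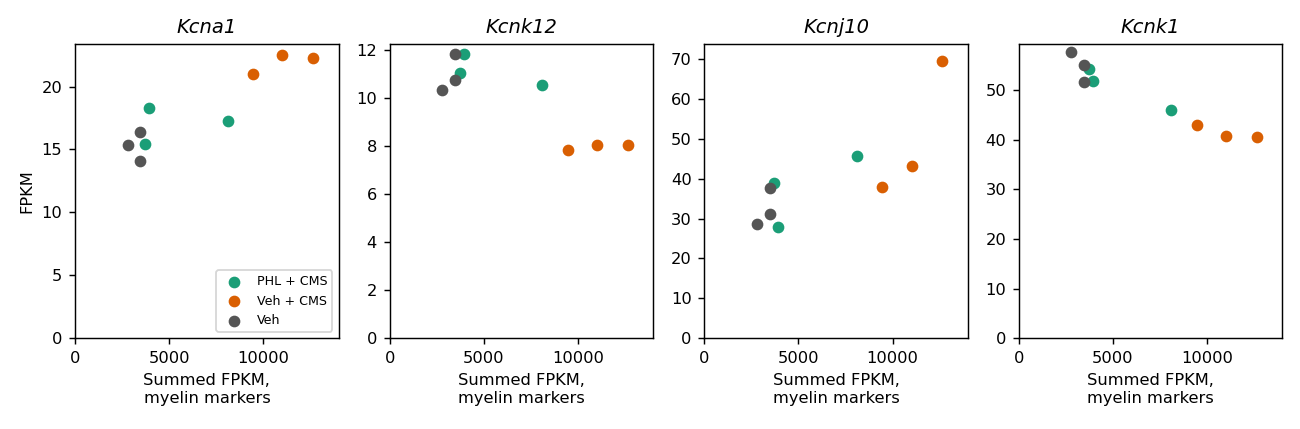
FPKM of 4 subunits (vertical axes, from 0) against the summed FPKM of 22 myelin markers (horizontal axes), 1 point per library, coloured by group. The 3 Veh + CMS libraries lie at 9457 to 12635 on the horizontal axis, 1 PHL + CMS library lies at 8102, and the other 5 libraries lie between 2784 and 3937.

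The median ratio of the highest to the lowest library was 1.30 in PHL + CMS, 1.31 in Veh + CMS and 1.29 in Veh. Ratios of at least 1.5 occurred in 19 subunits in PHL + CMS, 30 in Veh + CMS and 15 in Veh. In Veh + CMS 2, 11 subunits were at least 1.5 times the mean of the other 2 libraries of the group and 9 were at most 1/1.5 of it. These ratios were counted for the subunits only, so the shares over all tested genes are not known. The genes of this paragraph and the next that have not been named above were chosen after their values were seen. The largest ratio was that of Kcns1 (Kv9.1), a silent subunit, at 4.07, followed by Kcng4 at 3.06 and Kcnab3 at 2.25. The smallest were 0.140 for Kcnip2, 0.225 for Kcng3 and 0.405 for Kcnn3.

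Kcns1 had 4.70, 5.49 and 6.12 FPKM in PHL + CMS, 2.52, 12.04 and 3.40 FPKM in Veh + CMS and 10.3, 5.47 and 6.63 FPKM in Veh. Parvalbumin (Pvalb), which marks fast-spiking interneurons, had 71.2, 73.1 and 90.7 FPKM in PHL + CMS, 49.3, 143 and 49.4 FPKM in Veh + CMS and 143, 103 and 104 FPKM in Veh. Both genes were highest in Veh + CMS 2 and Veh 1 and lowest in Veh + CMS 1 and Veh + CMS 3. The 16 interneuron markers, Pvalb among them, did not share the high value in Veh + CMS 2. They summed to 1131, 1126 and 1140 FPKM in Veh + CMS and 1700, 1448 and 1535 FPKM in Veh. Kcnip2 (KChIP2) was either at 0.310 FPKM or less, or at 3.32 FPKM or more. It had 4.66, 0.272 and 0.239 FPKM in PHL + CMS, 3.32, 0.248 and 0.216 FPKM in Veh + CMS and 0.201, 0.310 and 6.87 FPKM in Veh. One library of each group was high. Shisa2 was highest in the same libraries, with 4.87, 2.96 and 2.92 FPKM in PHL + CMS, 4.64, 2.67 and 2.58 FPKM in Veh + CMS and 2.47, 2.98 and 7.05 FPKM in Veh.

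**Figure D5:**
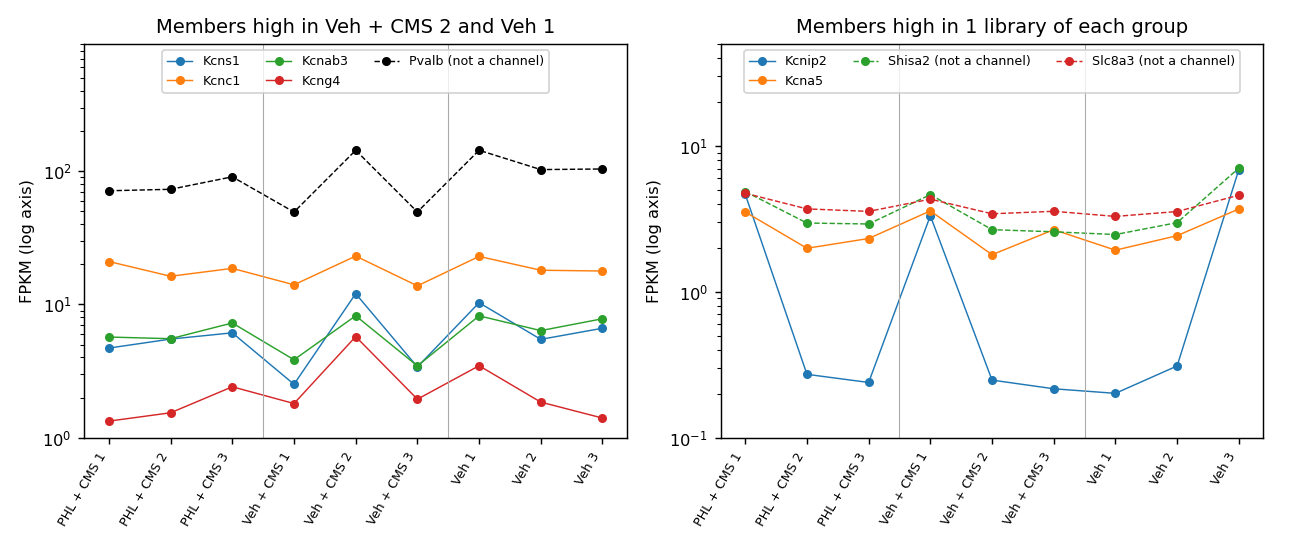
FPKM (log axes) by library for subunits that varied within groups, solid lines, and for genes that are no channels, dashed lines, with lines drawn only to guide the eye. In the left panel 4 subunits and Pvalb (143 FPKM in each) are high in Veh + CMS 2 and Veh 1, and in the right panel Kcnip2 is high in PHL + CMS 1 (4.66 FPKM), Veh + CMS 1 (3.32 FPKM) and Veh 3 (6.87 FPKM).

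Promoter sequences are shown for subunits chosen by their p in Veh + CMS against Veh, none of them called by limma. The called subunits had no promoter entry. RefSeq promoters of the build GRCr8 were matched by symbol for 62 of the 92 subunits, 48 of them tested, and the 250 bases before the start were searched on both strands. The GC box GGGCGG, bound by Sp1 family factors, occurred in 26 of the 48 (54.2%), beside 30.5% of all 33469 promoters, and the TATA box TATAAA in 0 of 48, beside 12.9%. The CRE half-site TGACG, bound by CREB family factors, occurred in 7 of 48 (14.6%), beside 18.2%. The 48 had passed the FPKM filter, while the 33469 promoters were taken without it, so these shares compare unlike sets. A match is only a match of letters. Printed below are the 2 subunits with the smallest p in each direction among those named that have an entry, with GC boxes in capitals, 5′ to 3′ along the gene. Kcns3 (chr6:39584106-39584355, minus strand) and Kcnj9 (chr13:87320294-87320543, minus strand) were lower in Veh + CMS than in Veh, and Kcna6 (chr4:161262353-161262602, minus strand) and Kcnj2 (chr10:96559975-96560224, plus strand) were higher.
Kcns3: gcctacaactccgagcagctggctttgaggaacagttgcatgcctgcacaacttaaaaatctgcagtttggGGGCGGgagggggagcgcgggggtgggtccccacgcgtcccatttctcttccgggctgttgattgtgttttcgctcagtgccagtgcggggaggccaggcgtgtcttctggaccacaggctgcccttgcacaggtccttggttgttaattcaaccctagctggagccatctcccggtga
Kcnj9: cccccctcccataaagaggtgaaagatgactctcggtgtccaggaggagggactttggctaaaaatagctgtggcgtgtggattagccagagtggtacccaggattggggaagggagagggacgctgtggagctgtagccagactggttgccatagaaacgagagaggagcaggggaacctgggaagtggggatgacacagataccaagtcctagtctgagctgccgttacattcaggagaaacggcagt
Kcna6: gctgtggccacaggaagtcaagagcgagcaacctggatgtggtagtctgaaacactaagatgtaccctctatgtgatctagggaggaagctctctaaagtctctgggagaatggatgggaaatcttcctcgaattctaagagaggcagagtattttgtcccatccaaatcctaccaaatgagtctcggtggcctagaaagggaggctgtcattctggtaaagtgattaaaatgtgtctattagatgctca
Kcnj2: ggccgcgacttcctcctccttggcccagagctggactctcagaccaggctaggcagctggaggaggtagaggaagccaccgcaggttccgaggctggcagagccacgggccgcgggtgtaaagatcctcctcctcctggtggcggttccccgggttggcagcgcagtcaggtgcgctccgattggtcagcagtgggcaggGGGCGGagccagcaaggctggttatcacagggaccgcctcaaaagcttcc
Kcns3 and Kcnj2 hold 1 GC box each, and Kcnj9 and Kcna6 hold none. Their GC content was 59.2% for Kcns3, 54.8% for Kcnj9, 45.6% for Kcna6 and 66.0% for Kcnj2.

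Genes that act with these channels were counted from lists chosen with earlier results of these data known, so their shares are a description only. Of 20 tested partners of potassium channels, 2 were called higher and 1 lower by limma in Veh + CMS against Veh (10% and 5%, beside 2.65% and 1.14% of all tested genes), with a median log2 fold change of -0.13. Cntn2, which clusters Kv1 channels beside the node of Ranvier in myelinated axons, had a log2 fold change of 1.21 with a limma adjusted p of 0.0263. The 21 tested myelin markers had a median log2 fold change of 1.66 there, and their part in the Cntn2 value was not tested. Ank3, the ankyrin that holds KCNQ channels at the axon initial segment, had 0.48 with a limma adjusted p of 0.0422. Lingo1, a membrane protein of neurons, had -0.48 with a limma adjusted p of 0.0424. In PHL + CMS against Veh + CMS none of the 20 was called by limma, while 4 were higher and 1 lower at an unadjusted p under 0.05 (20% and 5%, beside 7.51% and 8.22% of all tested genes).

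The 4 HCN channels, relatives of Kv channels that carry an inward current on hyperpolarization, were all below 0 in Veh + CMS against Veh (median -0.24). All 4 were above 0 in PHL + CMS against Veh + CMS, which shares the Veh + CMS libraries (median 0.31). None was called by limma, and at an unadjusted p under 0.05 1 of 4 was lower in Veh + CMS against Veh (25%, beside 11.3% of all tested genes) and 2 of 4 were higher in PHL + CMS against Veh + CMS (50%, beside 7.51%). In Veh + CMS against Veh 3 of 4 lay below 0 without Veh + CMS 2, Veh + CMS 3, Veh 1 or Veh 2, and in PHL + CMS against Veh + CMS 3 of 4 lay above 0 without PHL + CMS 3, Veh + CMS 1 or Veh + CMS 3. Among 20 tested potassium pumps and cotransporters, 1 was called by limma in Veh + CMS against Veh (5%, beside 2.65% of all tested genes called higher), Slc12a2 (NKCC1), which was higher in Veh + CMS with a log2 fold change of 1.11 and an adjusted p of 0.0263. Atp1b1, a beta subunit of the sodium pump, had -0.36 with a limma adjusted p of 0.056, and the sodium-calcium-potassium exchanger Slc24a3 had -0.56 with a limma adjusted p of 0.0658.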

How the data were processed

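RNA from mPFC tissue was sequenced in 9 libraries, 3 for each of PHL + CMS, Veh + CMS and Veh, grouped by the sample labels. The authors deposited 1 table of FPKM, with gene lengths as a further column. The submitters' processing notes name HISAT2 and the build Rnor_6.0, while versions, the counting and FPKM tools and use of strand are not given in the sources here. FPKM times gene length gave whole multiples of 1 step within 1e-06, taken as reads. Depth was 13913639 to 16960004 reads per library. Tested subunits had a mean of 23.3 to 3385 reads per library.

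Genes averaging 0.5 FPKM or more were fitted with limma 3.58.1 in R 4.3.3 on log2(FPKM + 0.1), with a variance trend, all 3 groups in 1 fit and no covariate. Fold changes are on this scale and understate low genes. Tests were two-sided with Benjamini-Hochberg adjustment over 16159 genes and a threshold of 0.05. The fit was tested on simulated data. Alternatives covered pseudocount, filter, scaling, trend, samples fitted, a replicate block, voom on recovered reads and each library left out. Named were called subunits, the 6 with the smallest p per direction and comparison, the 10 with the highest mean and the highest of each subfamily, and up to 3 of each other list. Members and lists were chosen with earlier results of these data known. Promoters came from RefSeq (GRCr8). Some genes that this rule names are not reported here.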

Additional observations from a re-analysis of the deposited data

How the results depend on the processing

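The number of called subunits in Veh + CMS against Veh was 3. It was 0 without the variance trend and ranged from 0 to 4 on leaving out single libraries, which leaves 2 libraries in an arm. Samples with the same replicate number showed no strong shared deviation over all tested genes (correlations of -0.10 to 0.05). Such correlations cannot exclude a pairing with a small effect or with an effect on few genes. With a replicate block the count was 0, and in PHL + CMS against Veh + CMS and PHL + CMS against Veh it was 0 with and without the block. The called number in PHL + CMS against Veh + CMS ranged from 0 to 1 on leaving out single libraries. Its count at an unadjusted p under 0.05 was 9 without the trend and 8 to 19 on leaving out single libraries. In PHL + CMS against Veh that count was 5 in a fit of these 2 groups alone and 2 to 8 on leaving out single libraries. The log2 fold change of Kcnk12 in PHL + CMS against Veh was 0.02 and turned to -0.0049 with quantile normalization, -0.0194 without Veh 2 and -0.0214 without PHL + CMS 1, within a range of -0.0214 to 0.0774 on leaving out single libraries. The causes of these changes were not tested. Of 192 values of 12 named subunits in Veh + CMS against Veh, 23 lost and 4 gained the adjusted call and 0 changed sign. Only values of the 3 called subunits could lose a call, so the 23 all belong to these and the 192 is not their base. Tested subunits of low level rested on as few as 23.3 reads per library on average, where counting error is largest.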
